A study of Mus musculus with 6 samples.

Results

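The androgen-binding secretoglobins are a family of small secreted proteins, and 10 of their genes were followed here in the prostates of mice with experimental autoimmune prostatitis (EAP), an immune-mediated inflammation of the prostate. The 10 genes are the alpha-subunit genes Scgb1b7, Scgb1b20 and Scgb1b27 and the partner-subunit genes Scgb2b4-ps, Scgb2b7, Scgb2b12, Scgb2b19, Scgb2b20, Scgb2b27 and Scgb2b30. They are 10 of the 18697 genes in the deposited count table and 10 of its 28 rows named Scgb1b or Scgb2b. They were chosen by their measured values, because all of them lean higher with VUF11207, so the difference between treatments below is a description with no test and supports nothing about the treatment. The treated mice received VUF11207, which activates CXCR7, an atypical chemokine receptor encoded by Ackr3, by intraperitoneal injection at 5 mg/kg per day for 14 days, and the other mice were injected with the vehicle DMSO over the same 14 days, with 5 mg/kg per day in its label too. There were 3 libraries in each group, and every mouse of both groups had EAP, so no healthy prostate stands beside these values. The labels give no strain, age or mouse for a library, so the spread between libraries may be partly technical. The series' title names the effect of CXCR7 on injury and fibrosis in EAP as its subject.

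Secretoglobins work as dimers joined by disulphide bonds, with a hydrophobic pocket that binds small lipophilic molecules. In the mouse an alpha subunit made from an Scgb1b gene pairs with a beta or gamma subunit made from an Scgb2b gene, and the dimer is called androgen-binding protein because it binds sex steroids. These proteins are best known from mouse saliva and lacrimal fluid, where they have been studied as signals in mate choice, and their genes form a large cluster that expanded by duplication in the mouse lineage.

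In the GRCm38 annotation (GENCODE M21) the 10 genes lie within 2621848 bases of chromosome 7, at chr7:31401034-34022881. That stretch holds 117 annotated genes, of which 57 are secretoglobins, 33 of these being pseudogenes. None of the other 60 is protein-coding, and 0 of the 60 are rows of the count table, so no unrelated neighbour could be followed. The genes with the same number stand as head-to-head pairs, Scgb2b genes on the minus strand and Scgb1b genes on the plus strand. The 5′ ends of Scgb2b7 (chr7:31703779-31705757) and Scgb1b7 (chr7:31712665-31713978) are 6907 bases apart. Those of Scgb2b20 (chr7:33364343-33366322) and Scgb1b20 (chr7:33373234-33374559) are 6911 bases apart. Those of Scgb2b27 (chr7:34011921-34013942) and Scgb1b27 (chr7:34021483-34022881) are 7540 bases apart. Scgb2b12 (chr7:32325286-32327245), Scgb2b19 (chr7:33278370-33280338), Scgb2b30 (chr7:32146243-32148031) and Scgb2b4-ps (chr7:31401034-31403176) are also on the minus strand, with no numbered Scgb1b partner among the 10. Scgb2b4-ps and Scgb2b30 are unprocessed pseudogenes in GENCODE and protein-coding genes in RefSeq.

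The start regions of the Scgb2b genes are near copies of each other. RefSeq's table of GRCm38.p6 gave a window of 300 bases, ending 50 bases after the annotated start, for 8 of the 10 genes; Scgb1b7 and Scgb1b20 had no entry. Across the 21 pairs of Scgb2b genes the aligned windows were 82.8% to 98.7% identical, and across the 15 pairs without Scgb2b27 89.2% to 98.7%. Scgb2b7 and Scgb2b20 shared 98.7%, and Scgb2b12 and Scgb2b19 shared 97.6%. The 33 bases shown next come from the minus strand and read 5′ to 3′. They are shown because the copies differ there in the letters TGTTCT, the right arm of the palindrome that several steroid receptors bind. Capitals mark TGTTCT.
Scgb2b20, chr7:33366481-33366513: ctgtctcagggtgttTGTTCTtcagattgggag
Scgb2b7, chr7:31705919-31705951: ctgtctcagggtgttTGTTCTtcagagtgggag
Scgb2b12, chr7:32327410-32327442: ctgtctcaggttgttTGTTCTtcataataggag
Scgb2b30, chr7:32148214-32148246: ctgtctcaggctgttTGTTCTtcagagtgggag
Scgb2b4-ps, chr7:31403359-31403391: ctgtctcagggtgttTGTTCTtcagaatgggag
Scgb2b19, chr7:33280501-33280533: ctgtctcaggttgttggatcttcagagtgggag
Scgb2b27, chr7:34014026-34014058: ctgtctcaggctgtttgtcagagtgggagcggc

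Searched on both strands, TGTTCT was found in 5 of the 7 Scgb2b windows of 300 bases, in 16 of 20 windows of all Scgb2b genes in the RefSeq table and in 19.0% of 32851 windows of all mouse genes. It was not found in the windows of Scgb2b19, Scgb2b27 and Scgb1b27. The whole palindrome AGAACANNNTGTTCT was found in 0 of the 8 windows and in 0.00913% of all windows. TATAAA, the core letters of a TATA box, was found in 8 of 8 windows and in 13.6% of all windows, but in Scgb2b27 and Scgb1b27 it lay after the annotated start. On overlapping positions of opposite strands it was found in Scgb2b4-ps, Scgb2b12, Scgb2b19 and Scgb2b30. In Scgb2b7, Scgb2b20 and Scgb2b27 it was found only on the strand opposite to the gene. A match is a run of letters, not a site shown to be bound.

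The 250 bases before the annotated start are given for 3 genes: Scgb2b20, the gene with the highest level per length, and the head-to-head pair Scgb2b27 and Scgb1b27, whose levels departed from those of the other genes in DMSO replicate 3. Capitals mark TGTTCT and TATAAA in either orientation, and the sequence of Scgb1b27 is from the plus strand.
Scgb2b20, chr7:33366320-33366569, minus strand: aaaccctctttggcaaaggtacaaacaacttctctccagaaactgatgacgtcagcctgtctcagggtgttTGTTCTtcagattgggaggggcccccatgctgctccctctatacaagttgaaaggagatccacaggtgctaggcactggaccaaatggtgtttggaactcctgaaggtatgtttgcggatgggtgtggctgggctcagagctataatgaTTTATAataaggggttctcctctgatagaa
Scgb2b27, chr7:34013943-34014192, minus strand: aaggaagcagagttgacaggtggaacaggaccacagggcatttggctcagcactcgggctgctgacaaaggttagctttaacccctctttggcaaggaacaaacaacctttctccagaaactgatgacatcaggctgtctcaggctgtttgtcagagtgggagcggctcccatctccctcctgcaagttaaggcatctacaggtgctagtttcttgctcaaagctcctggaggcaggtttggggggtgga
Scgb1b27, chr7:34021231-34021480, plus strand: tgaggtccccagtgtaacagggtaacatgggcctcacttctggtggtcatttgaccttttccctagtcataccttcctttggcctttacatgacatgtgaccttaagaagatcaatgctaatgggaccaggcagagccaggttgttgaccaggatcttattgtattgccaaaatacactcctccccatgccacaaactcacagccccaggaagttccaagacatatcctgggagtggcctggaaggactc

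The transcripts are near copies as well, which limits how far a count belongs to the gene it is listed under. Aligned transcripts were 99.0% identical between Scgb2b12 and Scgb2b19, 98.8% between Scgb1b7 and Scgb1b20 and 98.7% between Scgb2b7 and Scgb2b20. Each transcript was cut into all its windows of 50, 100 and 150 bases, and a window was called unique when none of the other 63 Scgb1b and Scgb2b genes in the annotation held it. At 100 bases, 100% of the windows of Scgb1b27, Scgb2b27 and Scgb2b4-ps were unique. The share was 78.3% for Scgb2b20, 78.1% for Scgb2b7, 68.6% for Scgb2b19, 68.0% for Scgb2b12, 67.5% for Scgb2b30, 58.4% for Scgb1b20 and 42.8% for Scgb1b7. At 150 bases 50.7% of the windows of Scgb1b7 were unique. At 50 bases the share was 93.5% for Scgb2b27 and 81.1% for Scgb2b4-ps. How long the reads were, and how reads matching more than one gene were counted, is not given in the sources consulted. Single values of Scgb1b7, Scgb1b20, Scgb2b7, Scgb2b12, Scgb2b19, Scgb2b20 and Scgb2b30 are therefore uncertain. With short reads those of Scgb2b4-ps and Scgb2b27 could be uncertain too. The 10 genes are for this reason also given as a sum.

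**Figure D1:**
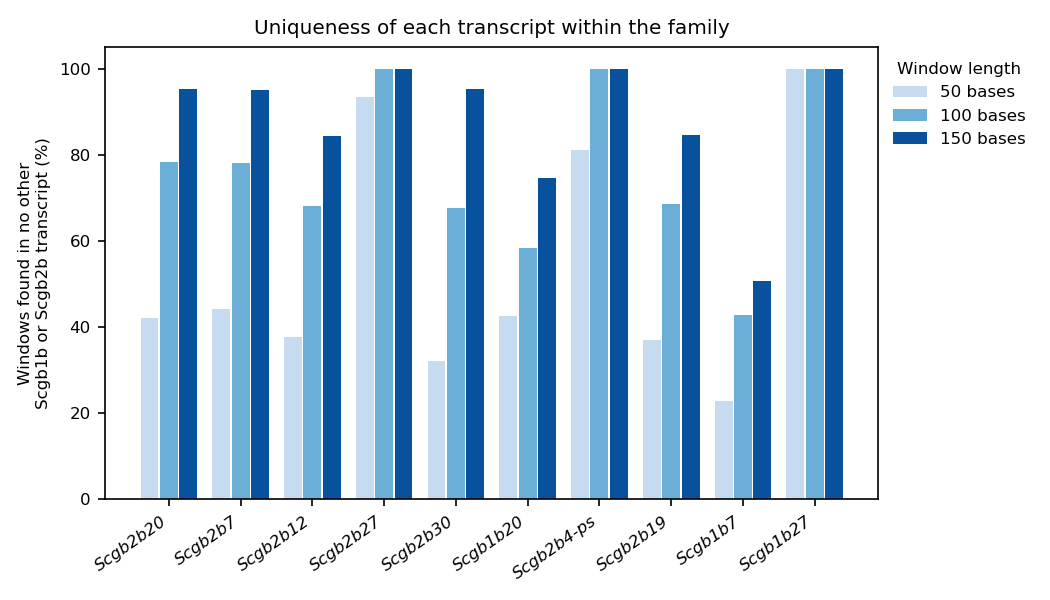
Share of transcript windows found in no other annotated Scgb1b or Scgb2b transcript (percent, y axis) for each of the 10 genes (x axis), with bars for windows of 50, 100 and 150 bases. Scgb1b27 is at 100% at every length, while Scgb1b7 reaches 50.7% at 150 bases.

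The 6 libraries held 20308018 to 33368058 counts and differed in tissue content within both groups. Genes of the seminal vesicle list, the secretory proteins of the gland next to the prostate, took 28.4%, 3.12% and 3.64% of the counts in VUF11207 replicates 1, 2 and 3, against 66.1% and 16.3% in DMSO replicates 2 and 3 and 0.705% in the vehicle library without a replicate number. VUF11207 replicate 1 and DMSO replicate 2 therefore stood apart in that content. Values below are in TMM CPM, counts scaled to a common library size after correction by the trimmed mean of M values, unless stated otherwise. In bulk tissue, fewer cells of a type and less RNA per cell cannot be told apart.

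Summed over the 10 genes, VUF11207 replicates 1, 2 and 3 held 25242, 50871 and 58010 counts, against 7842 and 8722 counts in DMSO replicates 2 and 3 and 2174 in the unnumbered vehicle library. As a share of all counts these were 0.0861%, 0.213% and 0.223% with VUF11207 and 0.0235%, 0.0346% and 0.0107% with DMSO. Wilson 95% intervals, which cover counting error only, were narrow beside the spread between libraries, at 0.0851% to 0.0872% for VUF11207 replicate 1 and 0.0103% to 0.0112% for the unnumbered vehicle library. In TMM CPM the sums were 853, 1707 and 1962 with VUF11207, against 552, 282 and 80.4 with DMSO. Every VUF11207 library lay above every DMSO library, and the DMSO libraries were the more scattered, their highest being 6.87 times their lowest, against 2.30 times with VUF11207. The means were 1507 ± 580 CPM with VUF11207 and 305 ± 237 CPM with DMSO (SD, n = 3 each), a ratio of 4.94.

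This ratio depended on single libraries. It was 8.36 without DMSO replicate 2, the library richest in seminal vesicle counts, and 3.62 without the unnumbered vehicle library. The other libraries left out in turn gave 6.08 without VUF11207 replicate 1, 4.62 and 4.19 without VUF11207 replicates 2 and 3, and 4.76 without DMSO replicate 3. In CPM of the counts outside the seminal vesicle list the sums were 1203, 2196 and 2317 with VUF11207 and 693, 414 and 108 with DMSO, again without overlap. Per 1000 counts of the glandular epithelium list they were 324, 653 and 515 with VUF11207, against 210, 97.4 and 34.9 with DMSO, also without overlap. These scales and the libraries left out together were chosen after the data were seen. Without VUF11207 replicate 1 and DMSO replicate 2, the libraries of each group with most seminal vesicle counts, the log2 ratio of the sums was 3.35, against 2.31 with all 6 libraries.

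**Figure D2:**
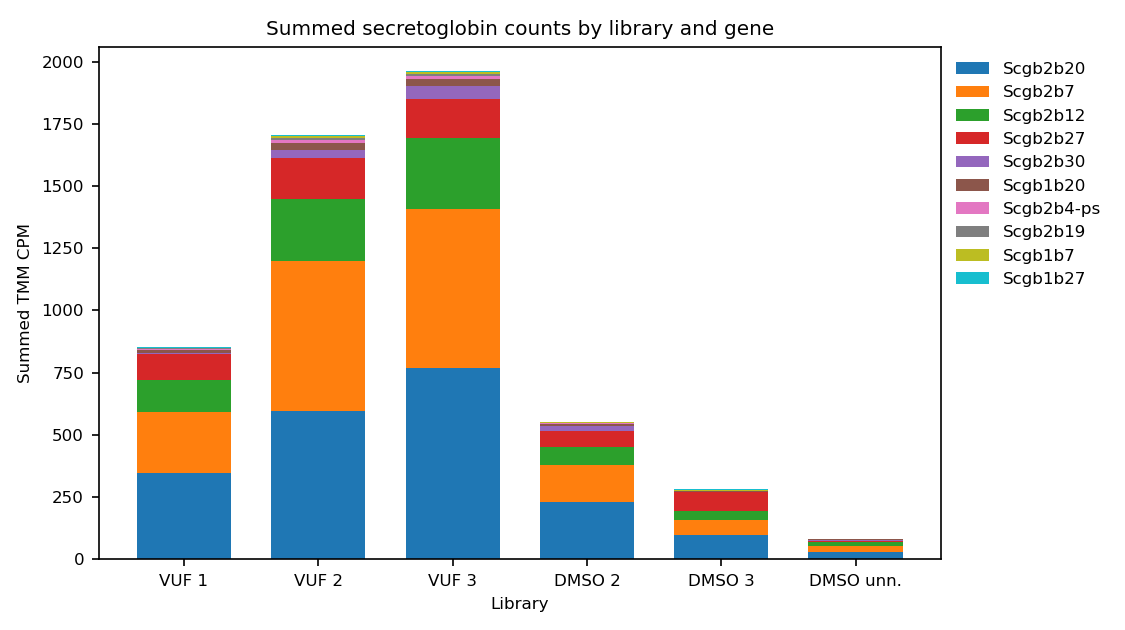
Summed TMM CPM of the 10 genes (y axis) in each library (x axis), stacked by gene, with VUF11207 replicates 1 to 3 on the left and DMSO replicates 2 and 3 and the unnumbered vehicle library on the right. The 3 VUF11207 libraries reach 853, 1707 and 1962 CPM, Scgb2b20, Scgb2b7 and Scgb2b12 make up most of every bar, and Scgb2b27 holds 27.3% of the counts in DMSO replicate 3.

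The Scgb2b genes carried nearly all of the signal. They held 838, 1665 and 1919 CPM with VUF11207 and 542, 272 and 78.6 CPM with DMSO, while the 3 Scgb1b genes held 15.7, 41.6 and 42.6 CPM with VUF11207 and 10.8, 9.50 and 1.85 CPM with DMSO. The ratio of partner-subunit to alpha-subunit counts was 53.4, 40.0 and 45.1 in the VUF11207 libraries and 49.9, 28.7 and 42.5 in the DMSO libraries, so the groups overlapped in that ratio.

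Scgb2b20 had the highest level per length, counted over the annotated transcript, at 1090 ± 409 CPM per kilobase with VUF11207 and 224.5 ± 194.5 with DMSO (SD, n = 3 each). Scgb2b7 followed at 954 ± 414 with VUF11207 and 153 ± 121 with DMSO, and Scgb2b12 at 433 ± 161 with VUF11207 and 79.8 ± 62.2 with DMSO. Scgb2b27 was at 280.2 ± 64.6 CPM per kilobase with VUF11207 and 95.4 ± 72.0 with DMSO. These 4 genes were the most abundant in both groups. Scgb2b30 was at 84.8 ± 67.6 with VUF11207 and 26.0 ± 33.8 with DMSO, and Scgb1b20, the most abundant alpha-subunit gene, at 54.2 ± 26.3 with VUF11207 and 9.61 ± 7.68 with DMSO. With VUF11207 the remaining levels per kilobase were 23.7 for Scgb2b4-ps, 15.1 for Scgb1b7, 12.8 for Scgb2b19 and 8.44 for Scgb1b27. In this order within VUF11207, the ranges of mean ± SD of neighbouring genes overlapped, except those of Scgb2b27 and Scgb2b30.

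All 10 genes passed the filter on low counts, through which 13753 genes were tested, and all 10 had a positive log2 fold change, as the choice of genes required. Their median log2 fold change was 2.37, against -0.04 over all genes tested. edgeR's quasi-likelihood test called 0 of the 10 and 0.00% of all genes at a Benjamini-Hochberg adjusted p under 0.05, with 196 genes at an unadjusted p under 0.05. limma voom called 0 genes, with 204 at an unadjusted p under 0.05. DESeq2 called 4 genes, 0.0293% of those it tested, with 310 at an unadjusted p under 0.05, and 1 of its calls was Scgb2b4-ps. For 7 of the 10 genes every VUF11207 library lay above every DMSO library, which held for 3.05% of all genes tested. Since the genes were chosen on this contrast, nothing is read from these counts.

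Among the partner-subunit genes, Scgb2b20 had 344, 596 and 770 CPM in VUF11207 replicates 1, 2 and 3, against 228 and 97.2 CPM in DMSO replicates 2 and 3 and 27.3 in the unnumbered vehicle library. All 3 VUF11207 libraries were above the highest vehicle library, DMSO replicate 2, and the log2 fold change was 2.28 ± 0.75 (SE). Scgb2b7, its near copy, had 248, 604 and 637 CPM with VUF11207, against 149, 61.7 and 27.2 CPM with DMSO. The order was the same and the log2 fold change was 2.64 ± 0.70 (SE). Scgb2b12 had 128, 250 and 285 CPM with VUF11207, against 75.4, 34.0 and 13.0 CPM with DMSO, again without overlap and with a log2 fold change of 2.44 ± 0.66 (SE). In all 3 genes VUF11207 replicate 1 was the lowest of its group and the unnumbered vehicle library the lowest of the 6.

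The low-abundance copies differed in how far they followed this order. Scgb2b19 had 3.92, 6.81 and 9.27 CPM with VUF11207, against 3.45, 0.711 and 0.0370 CPM with DMSO. The lowest and highest libraries of the groups nearly met, and the value of the unnumbered vehicle library rests on 1 count. Its log2 fold change was 2.29 ± 1.20 (SE), and was 4.13 without DMSO replicate 2. Scgb2b4-ps had 3.99, 11.2 and 8.93 CPM with VUF11207, against 1.55, 0.808 and 0.555 CPM with DMSO. The groups did not overlap, and its log2 fold change of 3.07 ± 0.60 (SE) was the largest of the 10, on 118 to 335 counts per VUF11207 library and 15 to 25 per DMSO library.

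Scgb2b30 followed the others less closely. It had 3.82, 33.1 and 48.5 CPM in VUF11207 replicates 1, 2 and 3, against 21.8, 1.03 and 3.40 CPM in DMSO replicates 2 and 3 and the unnumbered vehicle library. The groups overlapped, with DMSO replicate 2 above VUF11207 replicate 1, and the log2 fold change of 1.72 ± 1.25 (SE) ran from 1.09 without VUF11207 replicate 3 to 3.70 without DMSO replicate 2. Its counts per count of Scgb2b20 were 0.0111 in VUF11207 replicate 1 and 0.0106 in DMSO replicate 3, against 0.0556 and 0.0630 in the other VUF11207 libraries and 0.0956 and 0.125 in the other DMSO libraries. VUF11207 replicate 1 and DMSO replicate 3 were also the libraries richest in skeletal muscle transcripts, with list levels of 3.92 and 3.77, and of -3.53 to 0.33 elsewhere (a list's level is the average, over its 10 genes, of each gene's log2 CPM centred on the 6 libraries). The same libraries also had the highest levels of the salivary and lacrimal list, 2.70 and 2.14, so these contents cannot be told apart here. Their part in the values of Scgb2b30 was not tested.

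Of the alpha-subunit genes, Scgb1b20 had 10.3, 26.8 and 31.4 CPM with VUF11207, against 7.61, 3.23 and 1.30 CPM with DMSO. It followed the order of Scgb2b20 without overlap, at a log2 fold change of 2.51 ± 0.71 (SE). Scgb1b7, its near copy, had 1.22, 10.3 and 7.44 CPM with VUF11207, against 1.76, 0.808 and 0.370 CPM with DMSO. Here VUF11207 replicate 1 lay below DMSO replicate 2, so the groups overlapped, and the log2 fold change was 2.71 ± 0.92 (SE).

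The head-to-head pair Scgb2b27 and Scgb1b27, which encode subunits known from mouse saliva, had the 2 smallest log2 fold changes of the 10. Scgb2b27 had 105, 165 and 160 CPM with VUF11207, against 62.5, 76.9 and 7.14 CPM with DMSO. Its groups did not overlap, and the log2 fold change was 1.55 ± 0.77 (SE), running from 1.04 without the unnumbered vehicle library to 2.05 without DMSO replicate 3. Scgb1b27 had 4.16, 4.56 and 3.75 CPM with VUF11207, against 1.48, 5.46 and 0.185 CPM with DMSO. DMSO replicate 3 was the highest of all 6 libraries and the unnumbered vehicle library, with 5 counts, the lowest. The log2 fold change of 0.80 ± 0.99 (SE) was 0.25 without the unnumbered vehicle library and 2.36 without DMSO replicate 3. Scgb2b26, another partner subunit known from saliva, had 0 counts in each library, which allows up to 3 counts per library.

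The pair was high relative to its neighbours in DMSO replicate 3. There Scgb2b27 had 0.792 counts per count of Scgb2b20, against 0.306, 0.277 and 0.208 in the VUF11207 libraries and 0.274 and 0.262 in the other DMSO libraries. Scgb1b27 had 1.69 counts per count of Scgb1b20 in DMSO replicate 3, against 0.403, 0.170 and 0.120 in the VUF11207 libraries and 0.194 and 0.143 in the other DMSO libraries. Both ratios were next highest in VUF11207 replicate 1. These 2 libraries also held the most counts of Prol1, Smr2 and Pip, genes of salivary and lacrimal secretions. Prol1 had 15175, 18.9 and 1652 CPM with VUF11207, against 98.1, 14081 and 0.814 CPM with DMSO. Pip had 952, 1.54 and 74.3 CPM with VUF11207, against 7.26, 865 and 0.111 CPM with DMSO. Dcpp1, a secreted protein of salivary glands, was seen at 11.4 CPM in VUF11207 replicate 1 and 27.1 CPM in DMSO replicate 3, at 0.141 CPM in DMSO replicate 2 and at 0 in the other 3 libraries. Smgc, which marks the sublingual and newborn submandibular gland, had a single count in all, in VUF11207 replicate 3. Amy1, of the same list, was highest in DMSO replicate 2 and low in DMSO replicate 3. It had 37.6, 1.74 and 0.879 CPM with VUF11207, against 112, 0.937 and 3.77 CPM with DMSO. VUF11207 replicate 1 and DMSO replicate 3 were also the richest in skeletal muscle transcripts, so salivary, lacrimal and muscle content cannot be told apart here. The part of these contents in the values of the pair was not tested.

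**Figure D3:**
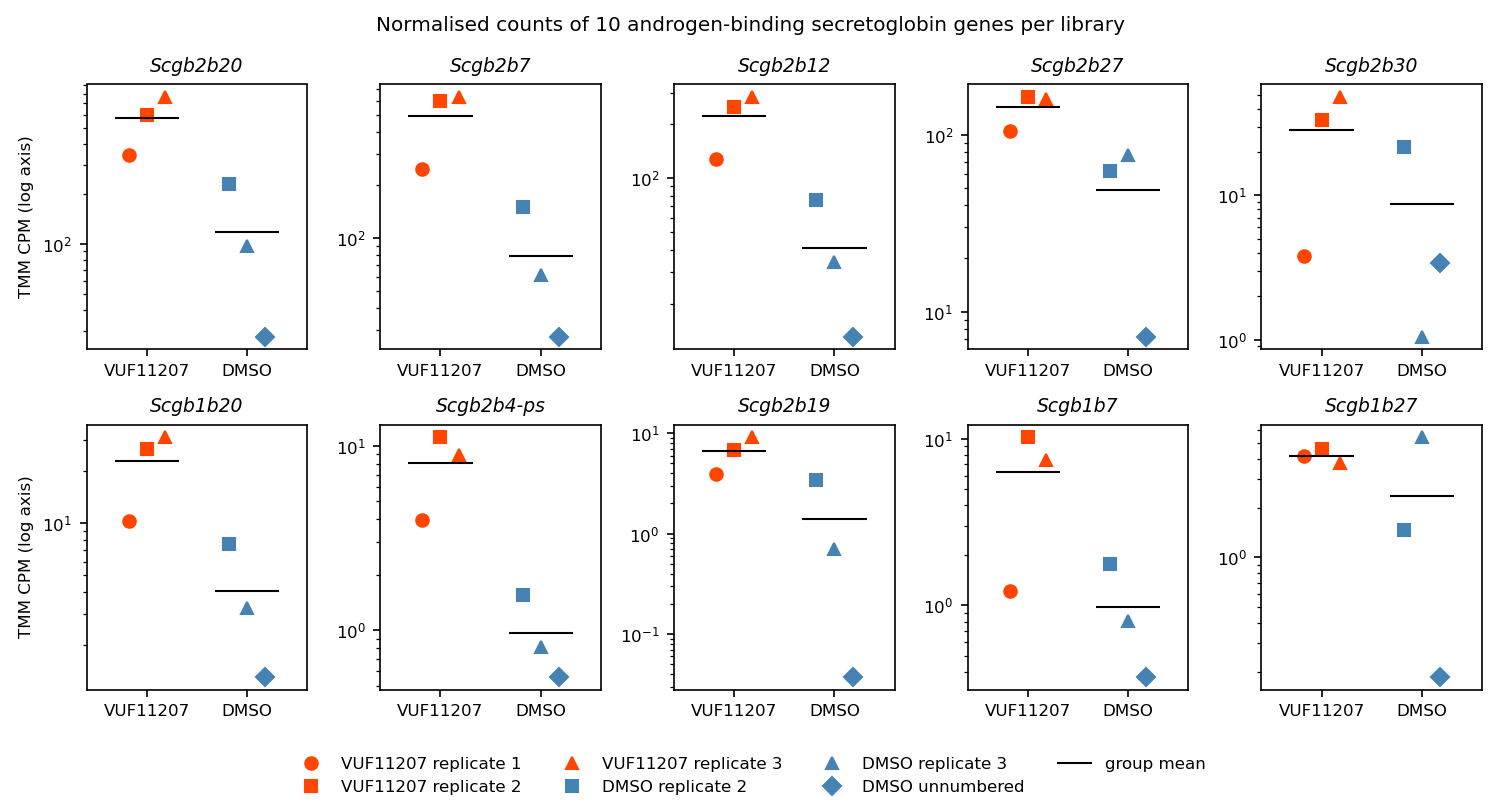
TMM CPM (log y axes that differ between panels) of each gene, with the 3 VUF11207 libraries on the left and the 3 DMSO libraries on the right of each panel; points are libraries and lines group means. In 7 panels the groups do not overlap, and in those of Scgb1b7, Scgb1b27 and Scgb2b30 they do.

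**Figure D4:**
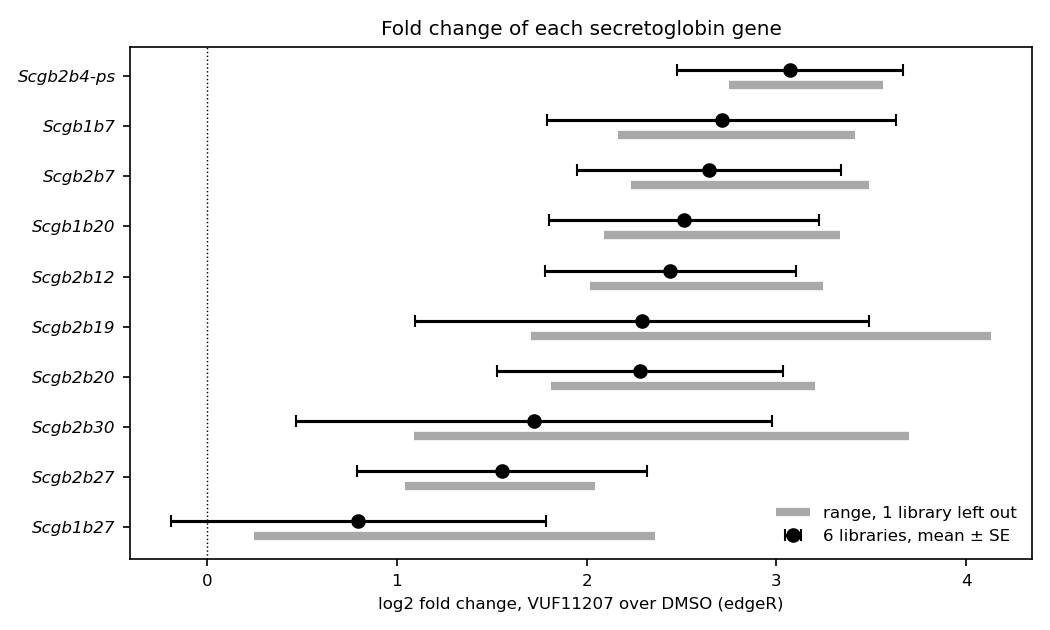
Log2 fold change of VUF11207 over DMSO (x axis) for each gene (y axis), with points and bars for the edgeR estimate ± SE and grey lines for the range when each library is left out in turn. Estimates run from 0.80 for Scgb1b27 to 3.07 for Scgb2b4-ps, and the grey line of Scgb1b27 runs from 0.25 to 2.36.

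Across the 6 libraries, the 7 genes other than Scgb1b27, Scgb2b27 and Scgb2b30 varied together, with Pearson's r of log2 CPM from 0.868 to 0.998 and a median of 0.969 over 21 pairs. Scgb2b27 and Scgb1b27 correlated with each other at 0.913, and Scgb1b27 with the 7 genes at 0.514 for Scgb1b7 to 0.710 for Scgb2b20. Scgb2b27 correlated with the 7 genes at 0.753 for Scgb1b7 to 0.928 for Scgb2b20, a value above that with its pair partner. With each group's mean taken out this order was reversed, at 0.870 with Scgb2b20 and 0.880 with Scgb1b27. Scgb2b30 correlated with the 7 genes at 0.730 for Scgb2b20 to 0.857 for Scgb1b7, with Scgb2b27 at 0.480 and with Scgb1b27 at 0.10. The libraries share depth, tissue content and reads among near copies, and the treatment difference on which the genes were chosen is part of each r, so these values are descriptions. The highest r, 0.998, was between Scgb2b7 and Scgb2b12, and the near copies Scgb2b7 and Scgb2b20 were at 0.987. Pairs of different subfamilies included Scgb1b20 and Scgb2b7 at 0.997 and Scgb1b7 and Scgb2b20 at 0.868. With each group's mean taken out these pairs were at 0.994 and 0.690.

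Other family rows gave little signal. Of the 18 Scgb1b and Scgb2b rows outside the 10 genes, 2 passed the low count filter. Scgb2b15 had 16, 55 and 56 counts with VUF11207, against 4, 4 and 2 with DMSO, a log2 fold change of 3.19 ± 0.85 (SE). Scgb2b10 had 13, 23 and 22 counts with VUF11207, against 3, 3 and 1 with DMSO, a log2 fold change of 2.57 ± 0.85 (SE). Neither passed edgeR's test, and both had every VUF11207 library above every DMSO library, which held for 3.05% of all genes tested. With at most 4 counts in any DMSO library, both passed the filter only through their VUF11207 libraries. Their direction is therefore partly fixed by the filter, and nothing is read from it. The other 16 rows had at most 35 counts in any library, and 2 had 0 in all. Scgb1a1, the secretoglobin of airway club cells, showed another distribution, with 4, 153 and 8 counts with VUF11207, against 0 and 3 counts in DMSO replicates 2 and 3 and 5254 in the unnumbered vehicle library. That library, where the 10 genes were lowest, also held 165 of the counts of Scgb3a2 and 23 of those of Scgb3a1, which had at most 9 and 1 in any other.

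Prostate secretory genes were split. Of the 15 tested, 10 were positive, the median log2 fold change was 1.18, and 0 passed edgeR's test in either direction. Their summed level ran from 94532 to 214134 CPM with VUF11207, against 87347 to 117497 CPM with DMSO. The list's level per library correlated with the log2 sum of the 10 genes at r = 0.914 over 6 libraries. That level was 0.02 to 1.05 with VUF11207 and -0.78 to -0.37 with DMSO. The treatment difference on which the 10 genes were chosen is therefore part of this r. Spink1, a secreted serine protease inhibitor of the accessory glands, had 14277, 26142 and 39129 CPM with VUF11207, against 16822, 8345 and 1242 CPM with DMSO. Its groups overlapped at VUF11207 replicate 1 and DMSO replicate 2, and its log2 fold change was 1.59 ± 1.09 (SE). Sbp, the spermine-binding protein of prostatic fluid, had 66225, 64894 and 143193 CPM with VUF11207, against 50372, 66858 and 3710 CPM with DMSO, also with overlap. Without overlap were Msmb, Defb50, Apof and 9530002B09Rik, also of the list and named after their values were seen. Their log2 fold changes were 2.66 ± 0.99, 2.39 ± 0.70, 1.45 ± 0.25 and 1.45 ± 0.65 (SE). Every VUF11207 library lay above every DMSO library in 3.05% of all genes tested, so nothing is read from these picked genes. For 9530002B09Rik the lowest VUF11207 library and the highest DMSO library nearly met. Msmb had 472, 887 and 2986 CPM with VUF11207, against 284, 361 and 40.6 CPM with DMSO. Other genes of the list ran the opposite way in the unnumbered vehicle library, and 2 of them are named here after their values were seen. Pbsn, the secreted protein probasin, had 623, 6739 and 2652 CPM with VUF11207, against 681, 769 and 17695 CPM with DMSO, a log2 fold change of -0.93 ± 1.46 (SE). Tgm4, a transglutaminase of the prostatic secretion, had 624, 8518 and 1646 CPM with VUF11207, against 828, 955 and 16902 CPM with DMSO, a log2 fold change of -0.79 ± 1.46 (SE). Both were highest in the library where the 10 genes were lowest.

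General epithelial genes varied less. Of 10 genes of the glandular epithelium list, 7 were positive, with a median log2 fold change of 0.13, 0 called, and a summed level of 2613 to 3810 CPM with VUF11207 and 2303 to 2894 CPM with DMSO. Krt18, a keratin of luminal epithelium, was at 542, 629 and 663 CPM with VUF11207, against 657, 604 and 727 CPM with DMSO, and the groups overlapped. Among 12 androgen response genes 3 were positive, with a median of -0.10, 0 called, and a summed level of 784 to 947 CPM with VUF11207 and 644 to 1299 CPM with DMSO.

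Markers of neighbouring tissues were uneven and did not rank the libraries as the 10 genes did. The seminal vesicle list had 0 of 11 genes positive and 0 called, its median log2 fold change being -2.78, with a summed level of 25014 to 281635 CPM with VUF11207 and 5299 to 1553960 CPM with DMSO, the last in DMSO replicate 2, whose TMM factor of 0.425 raises all its CPM. The salivary and lacrimal list had 7 of 10 positive, a median of 0.18 and 0 called, and summed levels of 338 to 17880 CPM with VUF11207 and 296 to 16597 CPM with DMSO. Skeletal muscle had 7 of 10 positive, a median of 0.11 and 0 called, with 629 to 6082 CPM with VUF11207 and 419 to 5745 CPM with DMSO. The epididymis and ductus deferens list, with 4 of 13 genes at 0 in all libraries, had 1 of 6 positive and a median of -0.38, and summed levels of 53.9 to 7915 CPM with VUF11207 and 34.9 to 6287 CPM with DMSO. The basal epithelium list had 4 of 6 positive and a median of 0.14, the T cell list 1 of 6 and -0.16, and the macrophage list 0 of 8 and -0.54, each with 0 called. The level of the macrophage list correlated with the sum of the 10 genes at r = -0.64 and that of the T cell list at -0.50. The treatment difference on which the 10 genes were chosen is part of each r. The part of these tissues and cells in the values of the 10 genes was not tested.

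**Figure D5:**
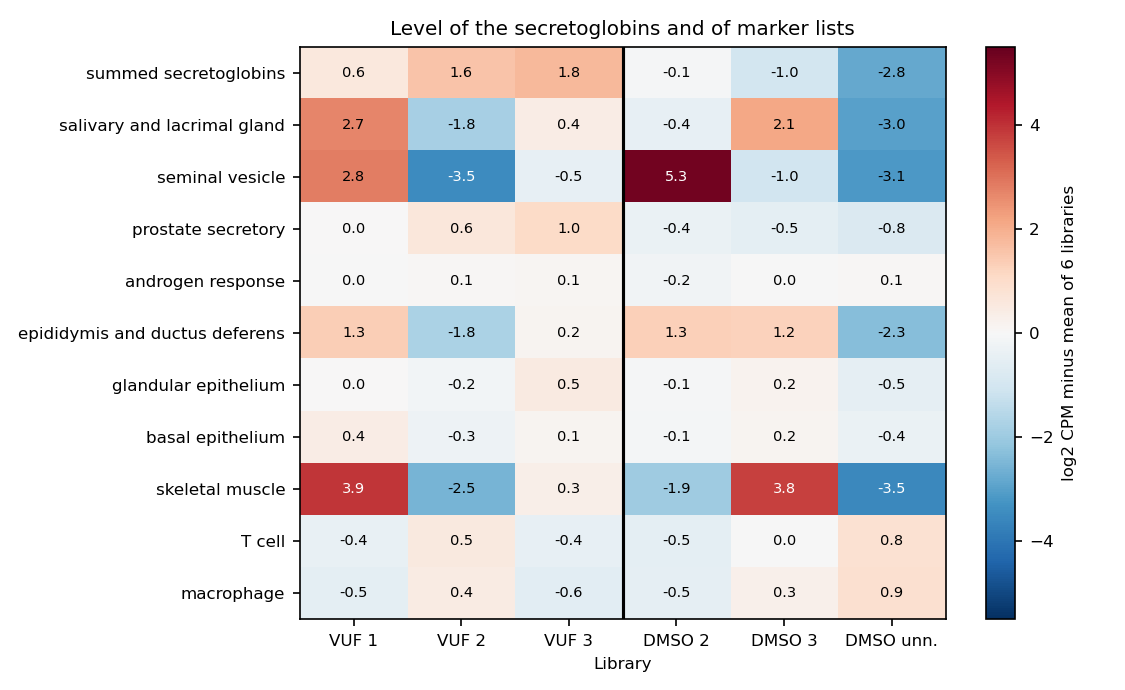
Level of the summed secretoglobins (log2 of the sum, minus its mean over 6 libraries) and of each marker list (average of its genes' log2 CPM, each centred on the 6 libraries) in rows, and the libraries in columns, VUF11207 on the left. The averaged prostate secretory row runs in the direction of the top row, with 1.05 for VUF11207 replicate 3 and -0.78 for the unnumbered vehicle library, while the seminal vesicle and skeletal muscle rows do not.

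The genes most like the sum of the 10 were taken by Pearson's r of log2 CPM over the 6 libraries, among 11767 genes with sufficient counts. The 8 with the highest r were Tipin (0.982), Slc25a17, Defb29, Nsmce2, Msmo1, Snx1, Adh6a and Ndufa12 (0.971). Defb29, a beta-defensin gene of the male tract, had 3.79, 6.81 and 9.50 CPM with VUF11207, against 1.83, 1.84 and 0.185 CPM with DMSO, and its groups did not overlap. Msmo1, an enzyme of cholesterol synthesis, had 46.5, 52.6 and 66.5 CPM with VUF11207, against 38.6, 32.9 and 25.2 CPM with DMSO, without overlap at a log2 fold change of 0.78. With each group's mean taken out, the 8 highest were Micalcl (0.999), Gpx8, Rfc3, Spink1 (0.990), Mrm2, Zfp24, H2bc8 and Pof1b (0.983), none of them in the first list. Spink1 had rank 12 in the first ranking, at r = 0.966. With 6 libraries and 11767 genes, high values of r arise readily, and 22 genes reached 0.95.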

How the data were processed

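RNA sequencing libraries of EAP prostates were analysed, 3 from mice given VUF11207 and 3 from mice given DMSO. Per the labels' protocols, total RNA came from a TRIzol extraction and the library kit was VAHTS Universal V6. The submitters' processing notes name fastp, HISAT2 and HTSeq, with the build mm10. Not given in the sources used here were versions, annotation, read length, strandedness and the counting of reads matching more than one gene. The authors deposited raw counts per gene symbol, not normalised. The 5 single-library files were identical to their columns of the whole table. The remaining DMSO column matched no numbered file, and entered its group as the unnumbered vehicle library (replicate 1 by elimination).

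The 10 genes and all gene lists were chosen with earlier results of these data known. Counts were fitted on the whole table in R 4.3.3 with edgeR 4.0.16 (filterByExpr, TMM factors, robust quasi-likelihood fit, no covariates, two-sided test, Benjamini-Hochberg adjustment over all genes tested, threshold 0.05). The fit was tested on simulated data. DESeq2 1.42.0 and limma 3.58.1 (voom) were alternatives, as were other scalings, no count filter, the replicate block and leaving out each library. p-values measure only the spread between these samples. Correlations used log2(CPM + 0.5). Genes for likeness had an average log2 CPM of at least 1. Named genes were the members, other Scgb1b and Scgb2b rows, the 8 most alike by each measure, and up to 4 genes of highest mean CPM per list. Amy1, Dcpp1, Smgc, Pbsn, Tgm4, Msmb, Defb50, Apof, 9530002B09Rik and the secretoglobins outside the family were named in addition. Sequences came from RefSeq's GRCm38.p6 table, transcripts from GENCODE M21, read with Python 3.11.15 and aligned with Biopython 1.88. Counts carry no molecular identifiers, so intervals cover counting error only.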

Additional observations from a re-analysis of the deposited data

How the results depend on the processing

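All 10 log2 fold changes stayed positive under the 14 alternatives run, as the choice of genes favours, and 128 of 140 values moved by under 1 SD within groups. The 12 that moved by more came from limma voom (Scgb2b19), from leaving out DMSO replicate 2 (Scgb2b19, Scgb2b30) or 3 (Scgb1b27), and from leaving out both libraries with most seminal vesicle counts. Genes called over the whole table were 0 in edgeR, 4 with DESeq2 and 3 with library totals alone. The last called Scgb2b7 and Scgb2b12 and shifted the median of all genes to 0.14 (-0.04 with TMM). It put the median of the 10 genes at 3.11, with 8 not overlapping. The share of all genes not overlapping was not computed with library totals alone, so nothing is read from this count. The cause of these shifts was not tested. With each library left out, 0 genes were called each time and the log2 ratio of the summed genes ran from 1.86 to 3.06. Other scalings and sets of rows gave 2.13 to 2.92. By Spearman's rho 22 genes were tied at 1, among them 3 of the 8 genes most alike by Pearson's r. An arbitrary order within the tie put 0 of the 8 among its first 8, which says nothing about the list. With group means removed 0 of the 8 were shared.

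Replicate numbers were shared by 4 libraries (numbers 2 and 3). Deviations of same-numbered libraries, a single difference in each group, correlated at 0.0713, so the numbers do not establish pairs. With the replicate block, fitted on these 4 libraries, 0 genes were called, and the log2 ratio was 2.22. Numbers in the deposited column names match between the groups for every library, the unnumbered vehicle library included. A fit paired on those was not run. Counting intervals of the summed share were far narrower than its spread between libraries; they were not computed for single genes.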
